A study of Drosophila melanogaster with 2 samples.

Results

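The genes described are 10 genes of the JAK/STAT pathway of Drosophila melanogaster, of 13968 protein-coding genes on the 7 main chromosome arms. They are the ligand genes upd1, upd2 and upd3, the receptor gene dome, the kinase gene hop, the transcription factor gene Stat92E, the SOCS-family genes Socs36E, Socs16D and Socs44A, and the phosphatase gene Ptp61F. The set was chosen by the peak signal at Socs36E, which was the highest of the whole experiment. The rank of Socs36E is therefore a description and supports nothing, and the counts over the 10 genes received no test. Summits were assigned to a gene when they lay within it or no more than 1000 bp from an annotated transcription start (TSS), in gene models of Ensembl release 115 and coordinates of dm6.

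The experiment was chromatin immunoprecipitation with sequencing for Pita in whole embryos. The embryos came from 1 transgenic line carrying Pita with GFP at its C-terminus, were collected between 0 and 24 hours of age, and pooled both sexes. The samples form 1 group of 2 libraries, biological replicates 1 and 3, with chromatin sonicated to 200 to 800 bp. The description gives anti-GFP as the precipitating antibody, whereas the antibody field gives pita. Nothing further is given on how the replicates were produced, so the spread between them may be technical. A control experiment is named and was not analysed here. There is no contrast between groups, read depth is unknown because peak lists carry no read counts, and in whole embryos binding in more cells and stronger binding per cell cannot be told apart.

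JAK/STAT signalling begins when an Unpaired cytokine binds the receptor Domeless, which activates the Janus kinase Hopscotch. The kinase phosphorylates the transcription factor Stat92E, which enters the nucleus and activates target genes. Socs36E is a well-known target and in turn inhibits the pathway, a negative feedback loop, and Ptp61F is a phosphatase that lowers signalling. Pita, an insulator protein with zinc fingers, binds DNA through a long sequence element and is known from boundaries of the bithorax complex.

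Of the 10 genes, 4 held a summit of the reproducible list, which was thresholded by the authors on the irreproducible discovery rate (IDR) and held 1338 summits. They were Socs36E, Stat92E, Ptp61F and Socs16D, beside 7.95% of all protein-coding genes (1111 of 13968). Since Socs36E was the reason for the choice, this count is only described. The 4 genes were unequal. Socs36E had rank 1 by the authors' peak signal, and the other 3 lay in the weaker part of the list, at ranks 866, 881 and 1163. No ligand gene, neither dome nor hop, and not Socs44A held an IDR summit.

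**Figure D1:**
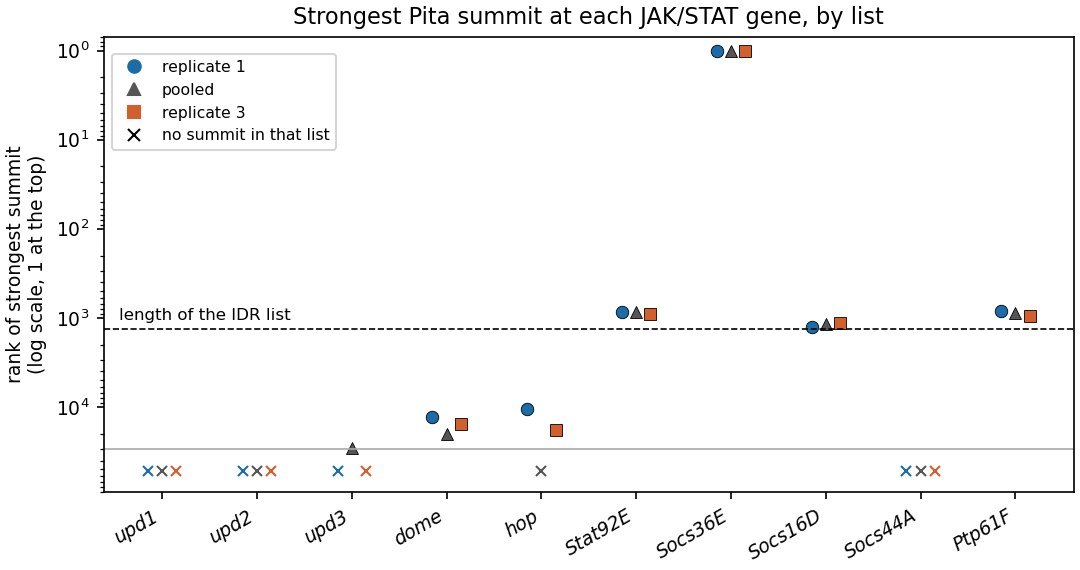
Rank of the strongest Pita summit at each of the 10 genes (vertical axis, log scale, rank 1 at the top) in the candidates of replicate 1, of replicate 3 and of the pooled libraries. The dashed line is the length of the IDR list, 1338, the grey line is the length of the candidate lists, 30000, and crosses mark genes without a summit in that list. Socs36E stands at rank 1 in all 3 lists, and Stat92E, Ptp61F and Socs16D lie just inside the dashed line.

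The sequences at the 4 IDR summits are shown so that the matches described further on can be read in their surroundings. They were read from the RefSeq sequence of Release 6 (dm6), on the minus strand, which is the coding strand of all 4 genes. Capitals in the sequences of Socs36E, Stat92E and Socs16D mark matches to a 19 bp sequence learned from all IDR summits, described further on. In that of Ptp61F they mark the 8 bp sequence AGGTGGCG. The Socs36E stretch is the 300 bases that end at the base before its TSS (chr2L:18152418-18152717). The Stat92E stretch (chr3R:20551491-20551641) and the Socs16D stretch (chrX:17827607-17827757) reach 75 bases to either side of the summit, and the Ptp61F stretch is 30 bases at the summit (chr3L:1352351-1352380).
Socs36E: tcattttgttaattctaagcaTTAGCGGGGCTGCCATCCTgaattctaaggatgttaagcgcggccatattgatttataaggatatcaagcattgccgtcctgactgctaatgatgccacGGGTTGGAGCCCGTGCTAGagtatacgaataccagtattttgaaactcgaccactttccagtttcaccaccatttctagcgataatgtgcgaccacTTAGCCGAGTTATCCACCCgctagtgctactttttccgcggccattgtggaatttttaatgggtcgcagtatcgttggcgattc
Stat92E: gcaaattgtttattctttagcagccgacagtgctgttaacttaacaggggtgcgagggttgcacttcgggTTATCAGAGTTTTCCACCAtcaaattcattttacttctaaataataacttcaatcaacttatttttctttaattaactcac
Socs16D: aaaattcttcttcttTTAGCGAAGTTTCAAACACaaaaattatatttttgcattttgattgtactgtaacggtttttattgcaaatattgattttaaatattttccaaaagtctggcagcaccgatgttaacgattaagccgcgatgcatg
Ptp61F: ttttcagaaatAGGTGGCGctagcgtcgct

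Socs36E encodes a suppressor of cytokine signalling and lies at 2L 18138675 to 18152417 on the minus strand, with a single annotated TSS. Its IDR summit at 18152521 lay 104 bp upstream of that TSS in intergenic sequence, in a peak of 680 bp from 18152226 to 18152905. The signal was 4711 in the IDR and pooled lists, 2174 in replicate 1 and 2536 in replicate 3, and it was the highest value of each list. The lead over the next peak was small. In the pooled list the next was the peak at Tlk, at 4593, so that Socs36E stood 1.03 times above it. In replicate 1 Tlk was again next, at a ratio of 1.01, and in replicate 3 ATPsynC was, at 1.03. The summits of the 2 replicates, at 18152528 and 18152522, were 6 bp apart.

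Relative to the median of the matched IDR summits, the Socs36E peak stood at 9.51 in replicate 1 and 9.15 in replicate 3. The same summit lay 602 bp from the TSS of CG17681, which runs in the opposite direction, so the peak lies between 2 divergent genes and the lists do not assign it to either. Replicate 1 listed a further candidate in the same interval, 344 bp upstream of the Socs36E TSS, with a signal of 63.7 at rank 1265. Within the transcribed part of Socs36E the candidates were weak. The strongest pooled one, in an intron 3353 bp from the TSS, had a signal of 77.4 at rank 1867. A candidate lay there in replicate 3 at rank 2011, whereas in replicate 1 the one closest by, 3469 bp from the TSS, had rank 10275.

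The 5 genes whose signal was most like that of Socs36E were taken from 931 genes with a matched IDR summit within 1000 bp of a TSS, by the summed absolute difference in log2 signal over replicates 1 and 3. They belong to 3 peaks. ATPsynC, which encodes a subunit of mitochondrial ATP synthase, and CG12054 share a peak with a summed difference of 0.08 and signals of 2127 and 2457. Tlk, the Tousled-like kinase gene, and Rala, a small GTPase gene, share a peak with a summed difference of 0.09 and signals of 2145 and 2421. RpL30, a gene of the large ribosomal subunit, followed at 0.17, with signals of 2008 and 2436. Socs36E was above all 3 peaks in both replicates, but the order among those 3 was not the same in both.

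Stat92E, the transcription factor of the pathway, lies at 3R 20535323 to 20552311 on the minus strand and has TSSs at 20551107 and 20552311. Its IDR summit at 20551566 lay inside the gene, in an intron of transcripts from the outer TSS and 459 bp upstream of the inner TSS. Its signal was 335 in the IDR list at rank 866, 152 in replicate 1 at rank 864 and 175 in replicate 3 at rank 908. These values are 0.684, 0.664 and 0.631 of the respective median over IDR summits, so the peak was below the median in every list, with replicate summits 56 bp apart. Near the outer TSS a pooled candidate 539 bp from it had a signal of 83.0 at rank 1761, short of the IDR list. A much stronger IDR summit lay outside the gene, 5419 bp beyond its 5' end and 63 bp from the TSS of DPCoAC. It had a signal of 1874 at rank 130, and ranks 130 and 122 in replicates 1 and 3.

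Socs16D encodes a SOCS-family protein and lies at X 17820764 to 17827564 on the minus strand. The IDR summit at 17827682, 118 bp upstream of a TSS, was the weakest of the 4. It had a signal of 186 at rank 1163, against 62.9 at rank 1273 in replicate 1 and 119 at rank 1135 in replicate 3, which is 0.275 and 0.429 of the medians. The replicate summits were 70 bp apart, at 17827664 and 17827734. Across 1291 IDR summits matched in both replicates the median gap was 11 bp and the 90th percentile 43 bp, so the position at Socs16D was less well fixed than at most peaks. In the weakest of 4 groups of summits by signal the 90th percentile was 55.8 bp. Past the other end of the gene, 269 bp and 55 bp beyond its 3' limit, stood a pair of IDR summits with signals of 921 at rank 412 and 236 at rank 1026. The peak beyond the 3' end was thus stronger than that at the promoter, and the nearest TSS to it belonged to CG12986.

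Ptp61F encodes a protein tyrosine phosphatase and is by far the longest of the 10 genes, at 132765 bp (3L 1342493 to 1475257, minus strand) with 4 TSSs. The IDR summit at 1352367 lay 1768 bp upstream of the nearest of them, in an intron of Ptp61F. The same position lies in the 3' UTR of the nested gene CG9166, whose TSS was nearer, at 1251 bp. The lists do not assign the peak to either gene. The signal was 325 at rank 881 in the IDR list, 160 at rank 842 in replicate 1 and 160 at rank 964 in replicate 3, with replicate summits 9 bp apart. Stat92E and Ptp61F changed places between the replicates, since Ptp61F was higher in replicate 1 and Stat92E in replicate 3. Their order therefore did not hold across replicates. A further pooled candidate 1968 bp from the TSS, beside the IDR summit, had a signal of 82.6 at rank 1771, and the next pooled candidate in the gene had rank 6005. Apart from candidates at these positions, the best rank in the gene was 4936 in replicate 1 and 4728 in replicate 3. The gene held 33 pooled candidates, but long genes hold more of any feature. The body of Ptp61F had 24.1 pooled candidates per 100 kb, against 23.6 along 3L as a whole. The corresponding densities were 26.4 against 23.3 in replicate 1 and 21.1 against 23.0 in replicate 3, so the gene was above its arm in the pooled list and in replicate 1 and below it in replicate 3.

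Gene length can be set beside the count over the 10 genes, and its part in that count was not tested. Of genes of at least 10000 bp, 18.4% held an IDR summit (366 of 1985), and all 3 members of that length, Socs36E, Stat92E and Ptp61F, did. Of genes of at least 100000 bp, the class of Ptp61F, 34.5% did (30 of 87). With the TSS window alone, Socs36E, Socs16D and Stat92E still held a summit and Ptp61F did not. The summits of Stat92E, Ptp61F and Socs16D had the width of 564 bp that was commonest in the IDR list. That width occurred in 6 of the 669 stronger peaks and in 303 of the 669 others. The Socs36E peak, of 680 bp, did not have it.

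**Figure D2:**
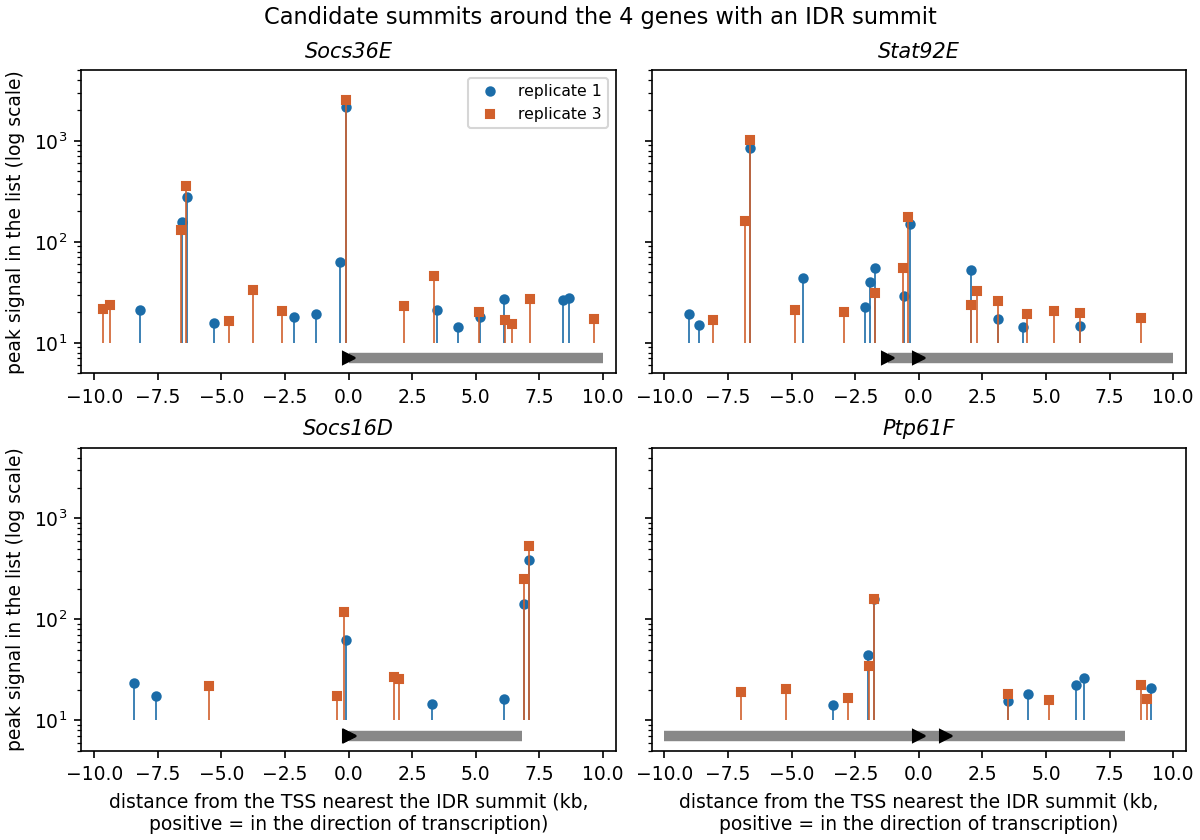
Candidate summits of replicates 1 and 3 within 10 kb of the TSS nearest the IDR summit of each of the 4 genes (horizontal axis, kb, positive in the direction of transcription), with peak signal on a log axis. The grey bar is the gene and arrowheads are its TSSs. The Socs36E peak stands alone above 2000 at its TSS, whereas at Stat92E and Socs16D the strongest peaks of the window lie beyond the gene.

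**Figure D3:**
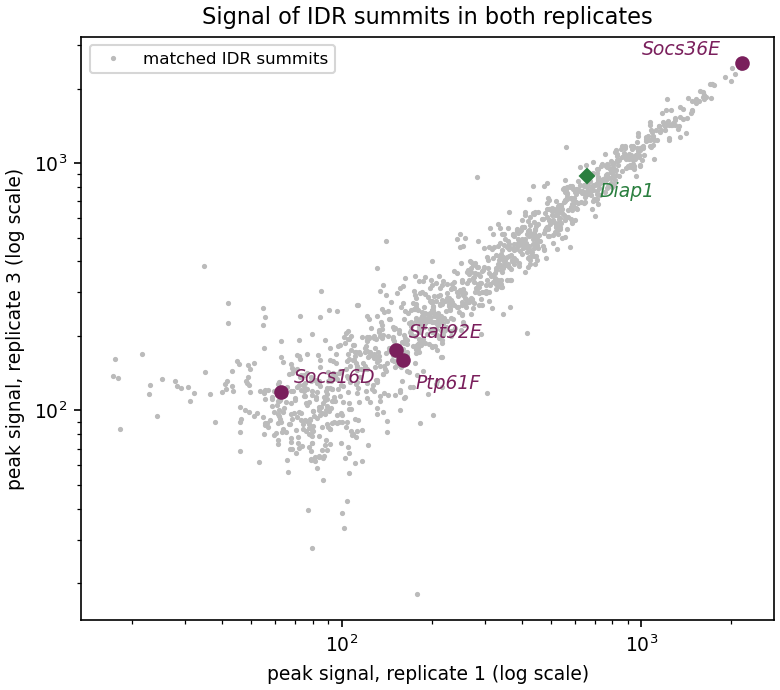
Peak signal in replicate 1 (horizontal) and replicate 3 (vertical) of the 1291 IDR summits matched within 100 bp, both on log axes. Socs36E is the highest point on both axes, Stat92E and Ptp61F lie close together at signals of 152 to 175, and Socs16D lies lower, where the cloud is wider.

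The plot of the loci and the plot of replicate signal show the same contrast among the 4 genes. The Socs36E signal was over 10 times that of the other 3 in each replicate. The next IDR summit lay 6271 bp away at the 5' end of JMJD4, with a signal of 636 at rank 565. At the edge of the IDR list, the last summit had a signal of 143.9 and the first pooled candidate beyond it 143.7, so the limit falls within a continuous range of signal. The Socs16D value of 186 was close to it.

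Among the 6 genes without an IDR summit, weaker candidates were sought in the candidate lists, which hold peaks and background regions together. Of all 10 genes, 6 had a pooled candidate, beside 65.5% of all protein-coding genes. The count was also 6 in replicate 1, beside 67.3%, and 6 in replicate 3, beside 65.1%. The 4 genes with an IDR summit are part of each count, since their summits stand in the candidate lists too. That these shares were close to those of genes at large therefore says nothing of the other 6. Among those 6, only upd3 and dome had a pooled candidate, and only dome and hop had one in replicate 1 and in replicate 3. Among the 5000 strongest pooled candidates the count was 4, the genes with an IDR summit, beside 23.8% of all genes. No candidate of any list was found at 3 of the 10, Socs44A, upd1 and upd2, beside 19.1% of all genes. With a window of 2000 bp, upd1 and upd2 gained a pooled candidate, for a count of 8 beside 75.7%.

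The ligand genes upd1, upd2 and upd3, which encode secreted Unpaired cytokines, lie within a single region of the X chromosome. There, upd1 spans 18305354 to 18309291, upd2 spans 18240654 to 18243284 and upd3 spans 18277233 to 18284596. The lone candidate among them was at upd3, in the pooled list, 3017 bp from the TSS, with a signal of 26.6 at rank 29251, near the end of a list of 30000. Neither replicate listed a candidate there. The 3 genes share the stretch between IDR summits at 18138225 and 18321550, a gap of 183325 bp that holds 12 protein-coding genes. Pooled candidates numbered 10.9 per 100 kb in that stretch, against 18.8 along the X chromosome. The replicates gave 11.5 against 18.4 and 12.6 against 19.4, so the stretch was below the density of its chromosome in all 3 lists. The stretch was bounded by IDR summits and held none inside, whereas the chromosome values include candidates at IDR peaks. A lower density is thus partly built in, and the pooled list comes from the same libraries as the other lists. Other such gaps were not compared. The nearest IDR summit to all 3 ligand genes was that at 18321550, beside CG6023, 357 bp from its TSS. Its signal was 376 at rank 813, and it lay 12259 bp from a TSS of upd1, 44317 bp from upd3 and 78266 bp from upd2.

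The receptor gene dome (X 19676061 to 19683518) had candidates of low rank. The strongest pooled candidate had a signal of 31.1 at rank 20091, and another, 973 bp from the TSS, had 28.5 at rank 25071. Replicate 1 gave 19.7 at rank 12868 and replicate 3 gave 20.4 at rank 15470, at positions that were not matched within 100 bp. The kinase gene hop (X 11360930 to 11368098), which encodes the single Janus kinase of the fly, had no pooled candidate. Its best candidates were 21.0 at rank 10640 in replicate 1 and 19.1 at rank 18232 in replicate 3, again unmatched. At both genes the replicates thus listed different positions. Over the 10 genes, 13 of 59 replicate 1 candidates ranked below 1338 had a match in replicate 3 (22.0%), against 18.8% of all such candidates. All of these matches lay at Socs36E, Stat92E and Ptp61F, and none at dome or hop. Some lay beside an IDR summit, so the share does not describe the genes without one.

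The nearest IDR summit to dome lay 44617 bp from its TSS, 12 bp from the TSS of Rcd-1, with a signal of 164 at rank 1250. That of hop lay 19895 bp away, in the 5' UTR of CG11756, with a signal of 173 at rank 1214. Over all protein-coding genes the median distance from a TSS to an IDR summit was 34545 bp (quartiles 11870 and 76745 bp). The median of the 10 genes was 16077 bp and that of the 6 without an IDR summit 44467 bp, with hop and upd1 closer than the median gene. The first of these medians includes Socs36E, whose peak was the reason for the choice. The second covers genes picked for having no IDR summit, whereas the median over all genes includes genes with one. Neither median can therefore be read as near or far against that of all genes. Socs44A, upd2, upd3 and dome were farther than it. Of all genes, 25.5% were closer than upd1, 35.6% closer than hop and 75.6% closer than upd2.

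**Figure D4:**
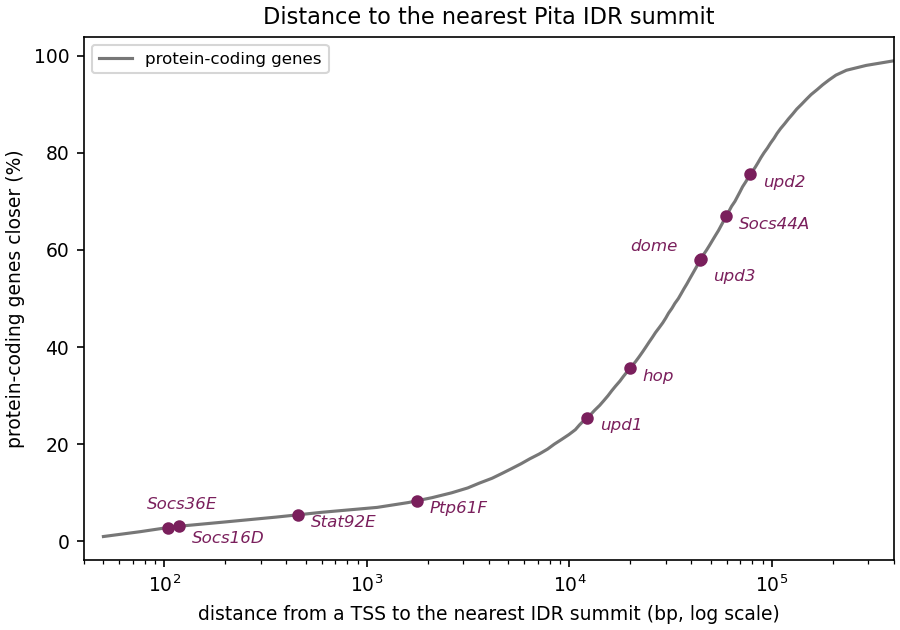
Distance from a TSS to the nearest IDR summit (horizontal, bp, log scale) against the share of protein-coding genes that are closer (vertical, %). The line covers all protein-coding genes and the points are the 10 pathway genes. The 4 genes with an IDR summit lie at the left, below 10%, and the other 6 are spread from 25.5% to 75.6%.

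Socs44A, the remaining SOCS-family gene, is short (1902 bp) and had no candidate in any list. Its nearest IDR summit was 59427 bp away, in the 5' UTR of lig, with a signal of 150 at rank 1308. Of all genes, 66.9% were closer to an IDR summit. The 3 SOCS-family genes therefore covered the whole range of the data, from the highest peak through a peak near the limit of the IDR list to none.

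Pita peaks often carry a long sequence element, and the 4 summits were scored against it. A matrix of 19 bp was learned from 1092 IDR peaks, with a threshold of 6.50 (log2 odds) that 5% of flanking windows exceed. The positions with the strongest preference were A at position 3 (93.9% of sites), C at position 17 (98.8%) and C at position 18 (96.7%), counted from the 5' end of the site. Within 50 bp of the summit, 54.0% of IDR summits (722 of 1338) had a match, against 5.53% of windows 250 bp away and 7.64% of the remaining pooled candidates. When the summits were split into 4 groups by signal, the share was 86.3% in the strongest and 25.7% in the weakest. Since the matrix was learned on these peaks, including those of the pathway genes, these shares are descriptions.

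Socs36E and Stat92E had a match within 50 bp of their summits, Socs16D and Ptp61F did not. At Socs36E the score was 17.7, higher than at 77.8% of IDR summits, and the match lay 29 bp from the summit and 75 bp upstream of the TSS. At Stat92E the score was 13.4, higher than at 59.8%, and the match centre lay 4 bp from the summit. At Socs16D the best score within 50 bp was -1.42, but a match of 14.5 lay with its centre 51 bp away, at 17827733. That position is 1 base from the summit of replicate 3, so the outcome at this weak peak turned on which summit was used. Ptp61F scored -5.57 within 50 bp and 1.02 at best over its whole peak, and thus had no match. In the sequences of Socs36E, Stat92E and Socs16D printed above these sites are in capitals.

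**Figure D5:**
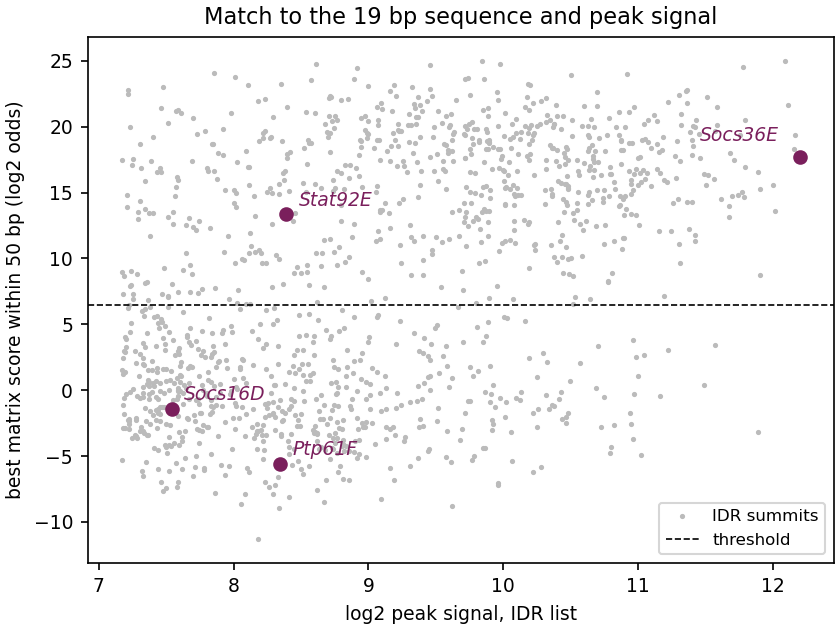
Best score for the 19 bp sequence within 50 bp of each IDR summit (vertical, log2 odds) against log2 peak signal (horizontal), for 1338 summits. The dashed line is the threshold of 6.50. Socs36E and Stat92E lie above it, Socs16D and Ptp61F below, and most summits of high signal lie above it.

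The Socs36E promoter held more than a single match. For counting, a match was taken as high-scoring above 13.2, the lower quartile of the scores at summits with the sequence. Within 300 bp upstream of the TSS there were 3 such matches that do not overlap, with centres 75, 171 and 270 bp from the TSS and scores of 17.7, 18.8 and 14.2. The middle one is in the opposite orientation to the other two. Within 200 bp of the summit, 3 or more high-scoring matches occurred at 20 of 1338 IDR summits (1.49%) and at none of the remaining 28662 pooled candidates. The matrix and the limit of 13.2 both came from the IDR peaks, so a higher share at IDR summits is partly built in. Of these 20 summits, 6 were among the 10 strongest and 8 among the 20 strongest. The windows of the summits at 3L 10463319 and 10463521 overlap, so the 20 are not all separate places. The peak of Tlk and Rala had 5 matches, that of RpL30 had 3 and that of ATPsynC and CG12054 had 2. Over the 10 strongest summits the number ranged from 1 to 5. Stat92E and Socs16D had 1 each and Ptp61F had 0.

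Side by side, the sites at the pathway genes can be read against those at the peaks most like Socs36E. They are given 5' to 3' on the strand of the match (Release 6, RefSeq), and capitals mark bases that equal the commonest base at the 8 positions of strongest preference. The last of them lies at the summit nearest the ligand genes.
Socs36E at 75 bp: ttAGCcgaGttatccACCc
Socs36E at 171 bp: ctAGCacgGgCtccaACCc
Socs36E at 270 bp: ttAGCgggGctgccatCCt
Stat92E: ttAtCagaGttttccACCa
Socs16D: ttAGCgaaGtttcaaACac
RpL30: ttAGCgtgGaCacgcACCg
Tlk and Rala: ttAGCgtgtgCaccaACCa
ATPsynC and CG12054: gtAGCcagGaCttgcACCg
CG6023: gtAGCgcaGgCacacACCc

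The Socs36E sites at 75, 171 and 270 bp kept 7, 8 and 6 of those 8 bases, and Stat92E and Socs16D kept 6 each. The highest score among the printed sites, 21.6, was at RpL30, and the site beside CG6023 scored 19.02, above each Socs36E site. A site's score and the signal of its peak therefore did not follow the same order among these genes. The CG6023 peak had a signal of 376, whereas Socs36E had 4711.

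High-scoring matches also occurred at pathway genes where no peak was listed. Across the genome there were 4285, of which 16.2% lay within 50 bp of an IDR summit. Of the 10 genes, 5 had such a match within the gene or 1000 bp of a TSS (Socs36E, Socs16D, Stat92E, upd2 and Ptp61F), beside 18.7% of all protein-coding genes. At Socs36E, Socs16D and Stat92E a match lay in the IDR peak, and the matrix was learned on these peaks. Those of Ptp61F lay within a gene of 132765 bp, and no share for genes of like length is given. At upd2 a match of 13.3 lay 609 bp from the TSS, without a candidate in any list. Ptp61F had 3 in its introns, with scores of 14.5, 15.1 and 13.3, none of which had a candidate within 100 bp. A match in an intron of Socs36E, 4689 bp from the TSS and scoring 15.1, had none either. A match alone was thus not accompanied by a listed peak at 5 of the 10 sites found at these genes.

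Short sequences were searched on both strands in 300 bp around the IDR summits and in the 300 bp upstream of every gene. TTCNNNGAA, the element that STAT proteins bind, reads the same on both strands. It occurred at 10.7% of IDR summits and upstream of 9.16% of protein-coding genes. Among the pathway genes it was found once, at the Ptp61F summit, and in none of the 10 upstream stretches. AGGTGGCG, part of the sequence known to be bound by the insulator protein CTCF, occurred at 6.43% of IDR summits and upstream of 0.737% of genes. It lay 1 bp from the Ptp61F summit, as the capitals in its sequence show, and at no other summit of these genes. AGATGGCG, a variant of it that cannot occupy the same position, occurred at 8.74% of IDR summits and upstream of 0.938% of genes, and at none of the 4 summits. These are matches of letters in a window and say nothing of the factors.

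Further genes of the pathway were counted from a written list of 15 regulators and 10 reported targets. None of the 15 regulators and 1 of the 10 targets held an IDR summit, against the 7.95% of all protein-coding genes given above. Pooled candidates were present at 14 regulators and 9 targets, 23 of the 25 genes, beside 65.5% of all protein-coding genes. That share was not matched for gene length, and the candidate lists hold background regions too. The best pooled rank per gene ran from 183 to 26787. The regulators with a candidate numbered 12 in replicate 1 and 15 in replicate 3, and the targets 9 and 7, beside the 67.3% and 65.1% given above. The target was Diap1, which encodes an inhibitor of apoptosis on 3L. It had summits 99, 360 and 569 bp from a TSS with signals of 1590, 437 and 211 at ranks 183, 726 and 1086. The strongest was found in both replicates, at 657 (rank 220) and 888 (rank 166), whereas the weakest was not matched in replicate 1. The strongest carried a 19 bp match with a score of 15.02, 2 bp from the summit. Just outside the window, E(bx) and vir-1 had IDR summits 1358 and 1341 bp from a TSS.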

How the data were processed

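Peak lists of chromatin immunoprecipitation from 2 libraries of Pita-eGFP embryos, biological replicates 1 and 3, were used as deposited on dm6. Each deposited peak has a signal value made by the authors, which is its own and was compared within a list. Per the notes deposited with them, candidates were listed per library and for both libraries pooled, and the IDR list was derived from these. The threshold on the IDR, the caller of the peaks and the aligner were not given in the sources used here. Depth is unknown. The dm3 lists were not used here.

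The summit of a peak was read from its list and assigned to a gene within the gene or 1000 bp of a TSS. Summits within 100 bp were matched between lists. Gene models were those of Ensembl release 115 and the sequence was Release 6 from RefSeq, and all 35 written symbols were found, 1 of them by a synonym. Over 8 rounds, a 19 bp matrix was learned on the 1092 IDR peaks left after summits within 300 bp of a stronger one were dropped.

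The 10 genes and all lists were chosen with earlier results of these data known. Named beside the 10 genes were other pathway genes with an IDR summit, genes sharing a TSS window with a member's summit, the gene nearest the closest IDR summit of each member without one, and the 5 genes of most similar signal to Socs36E. Genes beside other neighbouring summits, and E(bx) and vir-1, were named after their values were seen. No p-values were computed, since the design has 1 group. Alternatives were other windows, gene body or TSS window alone, the stronger peaks, the strongest 5000 and 10000 candidates, each replicate alone, shoulder summits dropped, other matching distances, other matrix windows and thresholds, and, added after seeing the data, whole peak intervals and long genes. A matrix learned without the peaks of the 10 genes was a further alternative. Python 3.11.15, NumPy 2.4.6, SciPy 1.17.1, pandas 2.3.3 and Matplotlib 3.10.9 were used.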

Additional observations from a re-analysis of the deposited data

How the results depend on the processing

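The count of 4 pathway genes with an IDR summit was the same with windows of 500 and 2000 bp and without shoulder summits. It was also 4 when the 1338 strongest candidates of either replicate replaced the IDR list, and the 4 genes were the same throughout. The share of all protein-coding genes at these settings was between 7.1% and 9.6%. The count was 3 with the TSS window alone, beside 6.76% of all protein-coding genes. In the gene body alone it was 2 (Stat92E and Ptp61F), beside 2.56%. Among the 669 stronger peaks it was 1 (Socs36E), beside 5.1%. The count of 6 with a pooled candidate was 8 at 2000 bp, beside 75.7% of all protein-coding genes. It was 5 in the TSS window alone, beside 48.3%, and 5 in the gene body alone, beside 53.7%. Among the strongest 5000 or 10000 candidates it was 4, beside 23.8% and 37.7%. The count of further pathway genes with an IDR summit, 1, was 3 at 2000 bp, beside 9.6%, and 0 in the gene body alone, beside 2.56%. That of all protein-coding genes, 1111, was 357 in the gene body alone, 713 for the stronger peaks and 366 among genes of at least 10000 bp. The median distance of the 10 genes to an IDR summit, 16077 bp, was 16176.5 bp without shoulder summits. With the 1338 strongest candidates of 1 replicate in place of the IDR list, it was 16078 or 16177 bp. The 19 bp sequence was found at 2 of the 4 summits, and at 3, Socs16D included, within 100 bp or over the whole peak. With a matrix learned without the peaks of the 10 genes it was again found at 2, Socs36E and Stat92E. Socs36E had rank 1 in the IDR, pooled and both replicate lists. No paired analysis was possible because the samples form a single group. Depth is unknown, the signal comes from 2 libraries, and values near the end of the IDR list, such as that of Socs16D, are the least certain in position.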
